A study of Mus musculus with 9 samples.

Results

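The hypoxia-inducible factor (HIF) pathway was followed in 10 genes of the 17596 listed in an RNA sequencing table of mouse spleen B cells. The genes were taken by symbol and comprised the HIF subunits Hif1a, Epas1 and Arnt, the oxygen sensors Egln1, Egln2, Egln3 and Hif1an, the ubiquitin ligase subunit Vhl, and the target genes Bnip3 and Vegfa. All 10 were listed in each of the 9 libraries. Primary B cells came from Mb1Cre mice, the controls, or from Mct1f/fMb1Cre mice, called Mct1-deficient here. Both genotypes carry the Mb1Cre allele, which drives the Cre recombinase in the B lineage, and the second also carries loxP sites around part of Mct1, the gene of a lactate and pyruvate transporter listed as Slc16a1. Cells were taken naive on day 0 (2 control and 2 Mct1-deficient libraries) or after 3 days of culture with the activating agents LPS, at 10 μg/ml, together with IL-4, at 50 ng/ml (2 control and 3 Mct1-deficient libraries). The study's methods place all mice in the same young age range and the floxed line on the C57BL/6J background, and the labels give no age.

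HIF is a pair of an α subunit, made from Hif1a or Epas1, and the β subunit made from Arnt. When oxygen is present, the prolyl hydroxylases made from Egln1, Egln2 and Egln3 modify the α subunit, the protein made from Vhl binds it and directs its degradation, and the asparagine hydroxylase made from Hif1an blocks its contact with the coactivators p300 and CBP. Much of this control acts on protein, which an RNA measurement does not see. A stabilised HIF pair binds a short core in DNA, either ACGTG or GCGTG, and raises genes of glucose use, blood vessel growth and removal of mitochondria.

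The promoters of 4 members are shown because Bnip3 and Vegfa had the largest differences between the days, Egln3 is itself a known HIF target, and Hif1a is the α subunit gene. Each sequence is the 250 bases before the RefSeq start of the gene on GRCm38.p6, read 5′ to 3′ on the strand of the gene, with capitals marking the core on either strand. Bnip3 lies at chr7:138909507-138909756 on the minus strand, Vegfa (the first of its 2 starts) at chr17:46032378-46032627 on the minus strand, Egln3 at chr12:54203875-54204124 on the minus strand and Hif1a at chr12:73907617-73907866 on the plus strand.
Bnip3: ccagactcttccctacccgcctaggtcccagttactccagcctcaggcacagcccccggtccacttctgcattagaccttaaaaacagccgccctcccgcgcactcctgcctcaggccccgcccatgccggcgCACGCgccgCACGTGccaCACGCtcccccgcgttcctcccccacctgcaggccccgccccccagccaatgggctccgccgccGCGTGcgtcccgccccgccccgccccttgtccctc
Vegfa: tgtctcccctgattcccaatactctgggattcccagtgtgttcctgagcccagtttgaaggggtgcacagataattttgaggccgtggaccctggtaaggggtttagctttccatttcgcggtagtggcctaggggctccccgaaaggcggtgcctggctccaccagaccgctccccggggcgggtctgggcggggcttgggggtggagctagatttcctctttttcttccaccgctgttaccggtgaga
Egln3: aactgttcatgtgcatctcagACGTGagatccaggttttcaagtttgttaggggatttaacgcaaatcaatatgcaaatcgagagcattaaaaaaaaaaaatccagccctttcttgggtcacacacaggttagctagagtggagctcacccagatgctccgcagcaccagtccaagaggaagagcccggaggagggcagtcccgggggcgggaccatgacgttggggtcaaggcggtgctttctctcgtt
Hif1a: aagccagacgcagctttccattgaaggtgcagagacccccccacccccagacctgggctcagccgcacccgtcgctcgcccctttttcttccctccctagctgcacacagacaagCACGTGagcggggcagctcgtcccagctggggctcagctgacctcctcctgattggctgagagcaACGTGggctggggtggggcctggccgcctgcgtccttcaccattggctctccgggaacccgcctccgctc
The core was searched as ACGTG and GCGTG on both strands, from 250 bases before to 50 bases after the start. A CACGTG is read on both strands and counts as 2. Of the 32851 promoter windows of the RefSeq table, 43.8% held at least 1 core and 1.66% held 5 or more. Among the members, 9 had a window, and 7 of these held a core in at least 1 of their windows. Counted by window, as the 43.8% is, 8 of their 11 windows held a core. The Bnip3 window held 5 cores, 4 of them beginning between positions -117 and -99 from the start. The Hif1a window held 3 and the Egln1 window 2. Egln2 had 6 cores at its first start and 1 at its second, and Vegfa had 0 at its first start and 2 at its second. Arnt and Egln3 held 1 each, and the letters were not in the Hif1an or Vhl window. A match describes letters in a window and not a bound site.

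**Figure D1:**
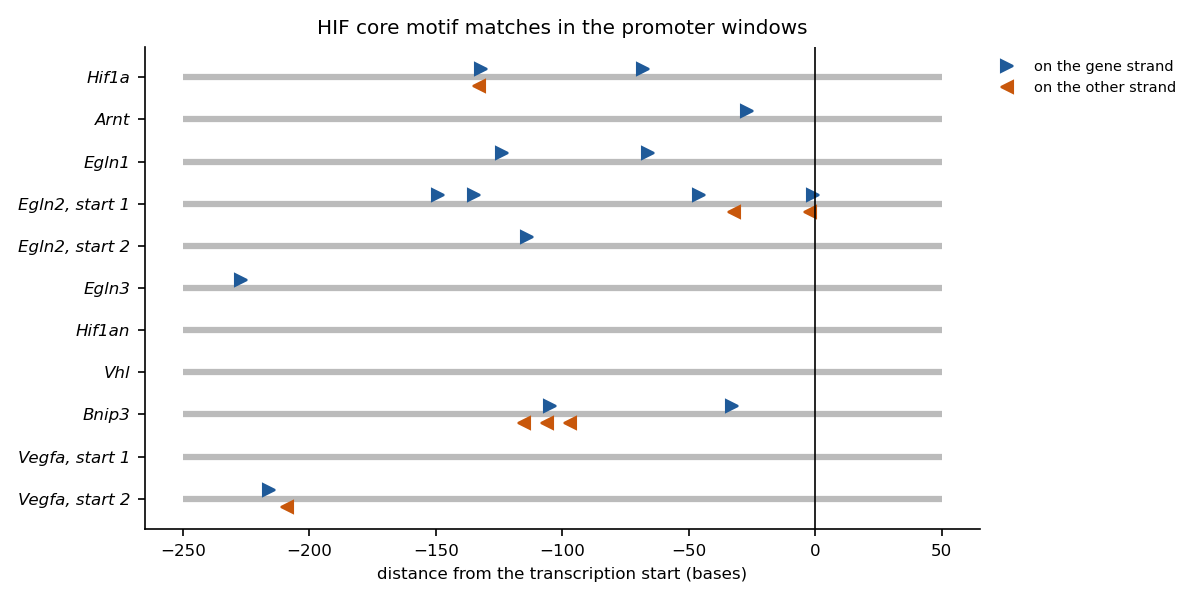
Matches to ACGTG or GCGTG in the RefSeq promoter windows of the 9 members that have one, by distance in bases from the transcription start (x axis), with each line standing for 1 window and each triangle for 1 match on the gene strand or the other strand. The Bnip3 matches lie between -117 and -35, and the Hif1an, Vhl and first Vegfa windows hold none.

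The values are fragments per kilobase of transcript, scaled to the mapped fragments of the library (FPKM), so levels of different genes can be compared. They hold no read counts, and the depth of each library is unknown. The summed FPKM of a library was 477079 to 491459 on day 0 and 547355 to 563586 on day 3. The targeted gene Slc16a1 was at 22.6 and 23.0 FPKM in the day 3 controls and at 10.8, 9.81 and 9.50 FPKM in the day 3 Mct1-deficient libraries. On day 0 it was at 4.33 and 3.80 FPKM against 3.71 and 4.06 FPKM, so that on day 0 the genotype rests on the labels. B cell markers were high in every library (Cd79a between 502 and 1714 FPKM). Of 25 markers of myeloid, erythroid, T or NK, endothelial and platelet cells, all were listed above 0 in some day 0 library. Of these, 17 were at least 10-fold higher on day 0 than on day 3 by their means. On day 3, 18 were under 1 FPKM in every library and 3 (Hbb-bs, Tek and Emcn) were at 0 in all of them. Tek and Emcn count among the 17, but were at 0.04 FPKM or less on day 0, near the rounding of the values. In such bulk samples, fewer cells of a type and less RNA per cell cannot be told apart. A control library of day 0 (replicate 1) stood apart in Lox, a collagen cross-linking enzyme gene singled out after its values were seen (6.04 FPKM against at most 0.42 in the other 8 libraries). The Y-linked gene Ddx3y was at 0.24 FPKM or less in 3 of the day 0 libraries and at 31.1 FPKM in day 0 Mct1-deficient replicate 1. It was at 14.7 to 16.9 FPKM in every day 3 library. Read from this 1 gene, the sex make-up of the libraries differed between the days and within the day 0 Mct1-deficient group. Its part in the differences between the days, in the day 0 genotype differences and in the interaction was not tested. The labels name no mouse, so each p-value below measures only the spread between these libraries, which may be technical.

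In control B cells on day 0, the order of the members' levels began with Egln2 at 60.4 FPKM (mean, n = 2), followed by Hif1a at 28.3, Arnt at 21.1, Hif1an at 14.3, Vhl at 13.3, Egln1 at 12.7, Bnip3 at 5.40 and Vegfa at 2.00 FPKM. The lowest were Egln3 at 0.405 and Epas1 at 0.315 FPKM, and these were the only neighbours in the order whose ranges overlapped. On day 3 the control order was Bnip3 at 44.0 FPKM, Egln2 at 34.1, Hif1a and Vegfa both at 24.4, Egln1 at 22.8, Arnt at 21.1, Vhl at 10.7, Hif1an at 7.96, Egln3 at 1.71 and Epas1 at 0.600 FPKM. There only Hif1a and Vegfa had overlapping ranges. Bnip3 thus moved from the seventh place to the first.

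The first comparison asked how activation changed the pathway in control B cells. Of the 9 members tested, 4 rose (Bnip3, Vegfa, Egln1 and Egln3) and 2 fell (Egln2 and Hif1an), where a change means an adjusted p under 0.05 in limma and a difference of more than 0.5 in log2(FPKM + 1). The same test called 24.8% of all 10823 genes tested higher and 33% lower on day 3. Egln3 passed the filter on low values, a mean of at least 1 FPKM, only through its day 3 libraries, so that the filter favoured a rise in it, and it was also called with no filter. Epas1 did not pass and was not tested. On the same cut, 4 members rose and 2 fell in Mct1-deficient cells, against 23.4% and 33.2% of all genes. The 2 comparisons each have their own day 0 and day 3 libraries. FPKM values of all genes shifted between the days by a median of -0.12 (control) and -0.14 (Mct1-deficient) on the log2 scale, and the share of calls that were higher was 42.9% and 41.4%. With libraries scaled to a common total this shift was -0.31 and -0.30 and the share 31.9% and 31.6%, and with quantile normalization the shift was 0.02 and 0.03 and the share 51.3% and 51.7%.

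**Figure D2:**
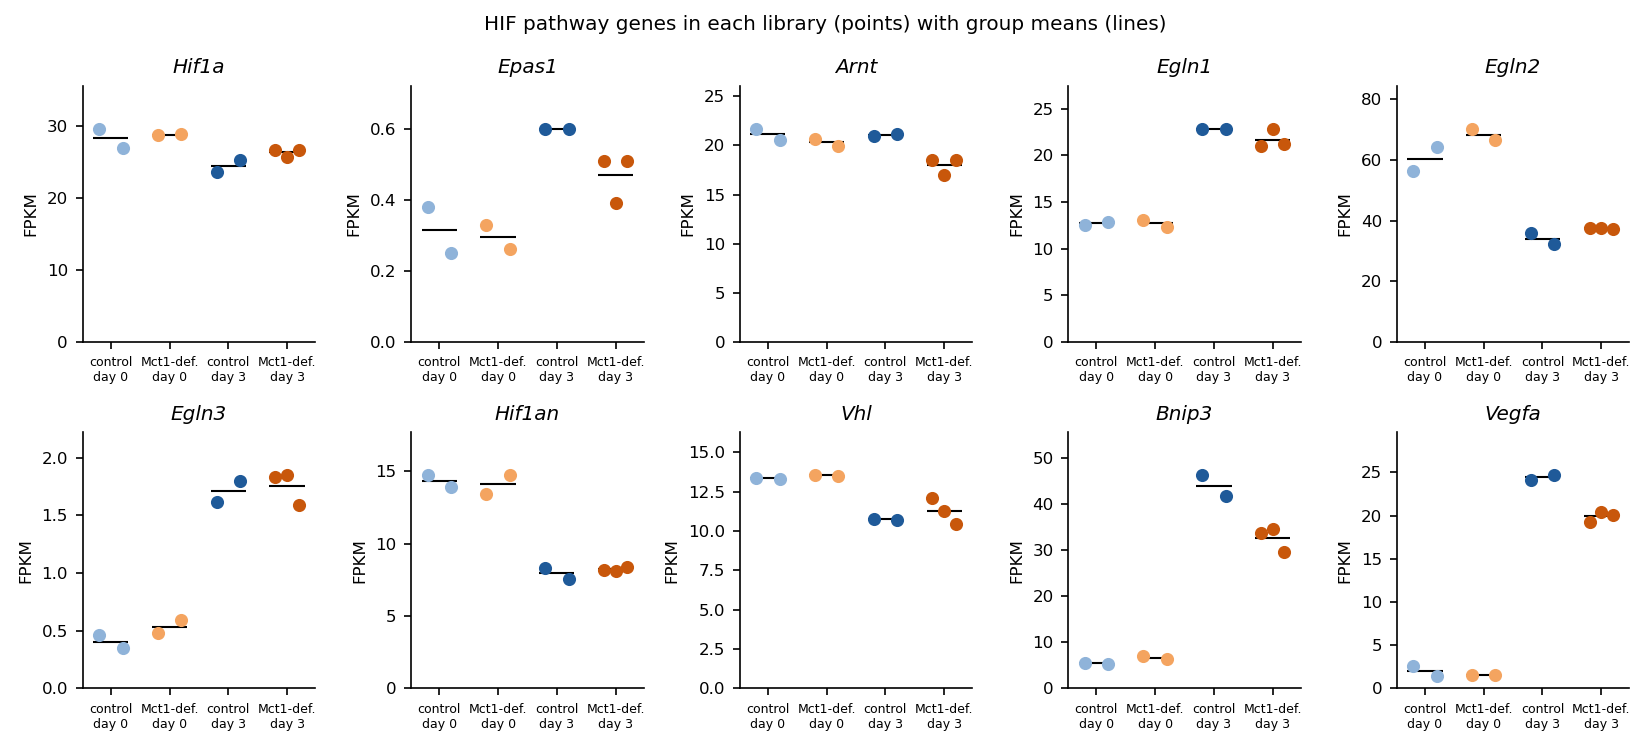
FPKM (y axis, from 0) of the 10 HIF pathway genes in each of the 9 libraries, by group, with points for libraries and lines for group means. Bnip3 and Vegfa sit above all day 0 values on day 3, and Egln2 and Hif1an sit below them. The 3 day 3 Mct1-deficient libraries are below the 2 controls for Bnip3, Vegfa, Arnt and Epas1 (not tested), and above them for Hif1a and Egln2. Of all genes tested, 26.1% lay below and 21% above in this way.

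Among the subunits, Hif1a, which codes for HIF-1α, was at 29.7 and 27.0 FPKM in the day 0 controls and at 23.7 and 25.2 FPKM in the day 3 controls. In Mct1-deficient cells it was at 28.8 and 28.9 FPKM on day 0 and at 26.7, 25.7 and 26.7 FPKM on day 3. Its day 3 values lay below its day 0 values in both genotypes, by differences of -0.20 ± 0.06 (SE, limma adjusted p = 0.00535) and -0.12 ± 0.05 (limma adjusted p = 0.0400), which are under the fold limit. The first was -0.40 with a common total and -0.08 with median-of-ratios scaling (limma adjusted p = 0.163), and the second turned to 0.01 with median-of-ratios scaling, so no direction is given for Hif1a in Mct1-deficient cells. Epas1, which codes for HIF-2α, stayed low, at 0.250 to 0.380 FPKM on day 0 and 0.390 to 0.600 FPKM on day 3. In each library Hif1a was 39.4 to 111 times the level of Epas1. Arnt, the shared β subunit gene, was at 21.7 and 20.5 FPKM in the day 0 controls and 21.0 and 21.2 FPKM in the day 3 controls. The Arnt ranges overlapped in the controls, with a difference of -0.0005 in limma (adjusted p = 0.994) that turned to 0.12 with median-of-ratios scaling. In Mct1-deficient cells Arnt was at 20.7 and 19.9 FPKM on day 0 and at 18.5, 17.0 and 18.5 FPKM on day 3, a difference of -0.17 ± 0.05 (limma adjusted p = 0.0111) that was under the fold limit. It ran from -0.34 with a common total to -0.03 with median-of-ratios scaling (limma adjusted p = 0.568).

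The 3 prolyl hydroxylase genes split. Egln1, which codes for the enzyme that sets most HIF-1α turnover in many cells, was at 12.5 and 12.9 FPKM in the day 0 controls and at 22.9 and 22.8 FPKM in the day 3 controls. It rose by 0.80 ± 0.06 in controls (limma adjusted p = 1.17e-07) and by 0.73 ± 0.05 in Mct1-deficient cells (limma adjusted p = 1.14e-07). Egln3, which is itself induced by HIF in many cells, was at 0.460 and 0.350 FPKM in the day 0 controls and at 1.62 and 1.80 FPKM in the day 3 controls. Its rise was 0.95 ± 0.10 in controls (limma adjusted p = 4.93e-06) and 0.84 ± 0.09 in Mct1-deficient cells (limma adjusted p = 5.82e-06). Both Egln1 and Egln3 were higher in every day 3 library than in any day 0 library.

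Egln2, which codes for the prolyl hydroxylase PHD1, went the other way. It was at 56.5 and 64.4 FPKM in the day 0 controls and at 35.9 and 32.2 FPKM in the day 3 controls, a fall of 0.81 ± 0.07 on the log2 scale (limma adjusted p = 5.28e-07). In Mct1-deficient cells it was at 70.4 and 66.4 FPKM on day 0 and at 37.6, 37.6 and 37.4 FPKM on day 3, where it dropped by 0.85 ± 0.06 (limma adjusted p = 1.43e-07). Within each library Egln2 made up 81.4 to 83.9% of the summed FPKM of the 3 genes on day 0 and 56.7 to 62.3% on day 3, while Egln1 went from 15.6 to 18.0% on day 0 to 34.7 to 40.1% on day 3. These shares are taken within a library and do not depend on how libraries are scaled. The sum itself was 69.4 to 83.9 FPKM on day 0 and 56.8 to 62.2 FPKM on day 3.

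**Figure D3:**
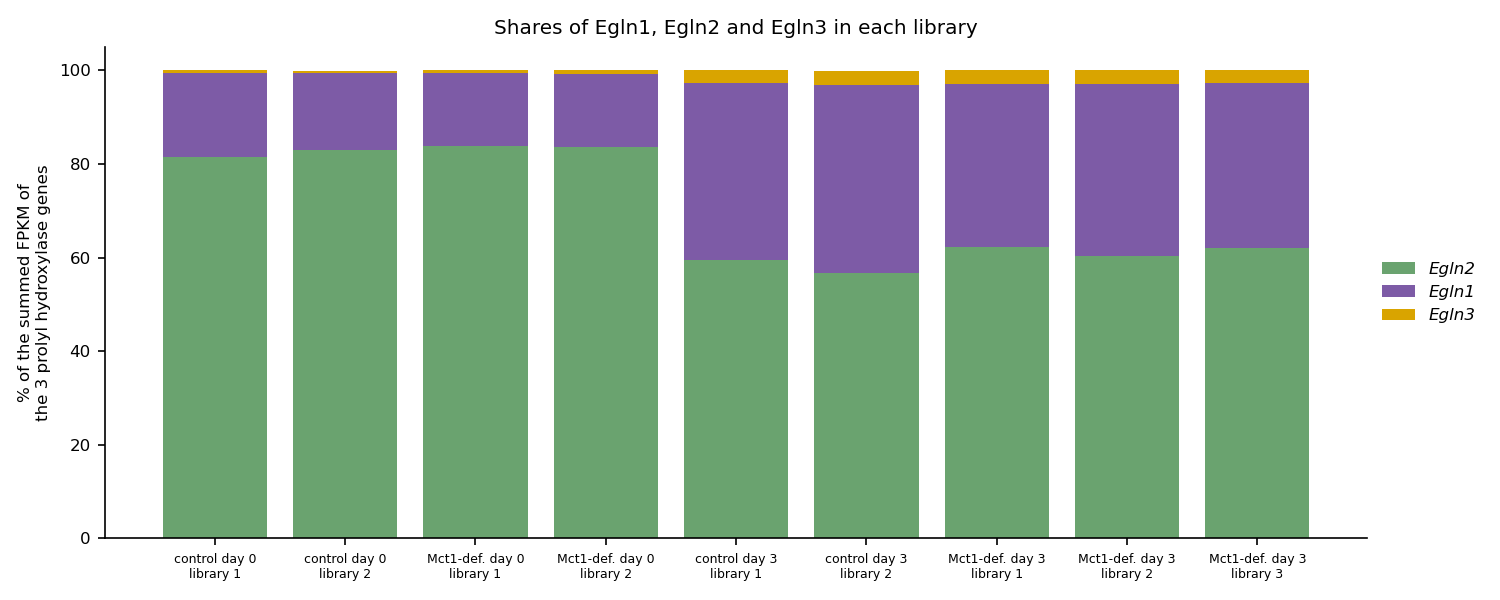
Share of Egln2, Egln1 and Egln3 in the summed FPKM of the 3 prolyl hydroxylase genes (y axis, percent, from 0) in each of the 9 libraries. Egln2 takes 81.4% or more in each day 0 library and 62.3% or less in each day 3 library, with Egln1 taking most of the difference.

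Hif1an, the asparagine hydroxylase gene, was at 14.7 and 14.0 FPKM in the day 0 controls and at 8.34 and 7.57 FPKM in the day 3 controls. It fell by 0.78 ± 0.07 (limma adjusted p = 6.21e-07), and by 0.71 ± 0.06 in Mct1-deficient cells (limma adjusted p = 5.92e-07). Vhl, whose protein binds hydroxylated HIF-α, was at 13.4 and 13.3 FPKM in the day 0 controls and at 10.8 and 10.7 FPKM in the day 3 controls. The Vhl ranges did not overlap, but its differences of -0.29 ± 0.06 in controls (limma adjusted p = 0.00148) and -0.25 ± 0.06 in Mct1-deficient cells (limma adjusted p = 0.00232) were under the fold limit. They ran from -0.48 and -0.41 with a common total to -0.11 and -0.05 with quantile normalization (limma adjusted p = 0.114 and 0.407).

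The 2 target genes showed the largest differences of the pathway between the days. Vegfa, which codes for a growth factor of blood vessels, was at 2.62 and 1.39 FPKM in the day 0 controls and at 24.2 and 24.7 FPKM in the day 3 controls. In Mct1-deficient cells it was at 1.56 and 1.54 FPKM on day 0 and at 19.2, 20.4 and 20.1 FPKM on day 3. The day 3 values stood far above the day 0 values in both genotypes, with a ratio of mean FPKM of 12.2 in controls and 12.8 in Mct1-deficient cells. On the log2 scale Vegfa rose by 3.11 ± 0.14 (limma adjusted p = 3.15e-09) and by 3.03 ± 0.13 (limma adjusted p = 1.69e-09). The highest day 0 value of Vegfa came from the control library that stood apart in Lox, and the other 3 day 0 libraries had at most 1.56 FPKM.

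Bnip3, which codes for a mitochondrial protein that marks mitochondria for removal by autophagy, was at 5.55 and 5.25 FPKM in the day 0 controls and at 46.2 and 41.7 FPKM in the day 3 controls. In Mct1-deficient cells it was at 7.03 and 6.28 FPKM on day 0 and at 33.6, 34.6 and 29.5 FPKM on day 3. Both genotypes thus had higher Bnip3 in every day 3 library, but the Mct1-deficient values lay above the controls on day 0 and below them on day 3. Neither genotype difference passed both limits, and that on day 0 had an adjusted p of 0.278 in limma. On day 3, 26.1% of all genes tested had every Mct1-deficient library below the controls. The share so separated on day 0 was not taken. Bnip3 rose by 2.81 ± 0.08 in controls (limma adjusted p = 9.86e-11) and by 2.13 ± 0.08 in Mct1-deficient cells (limma adjusted p = 3.64e-10), which is 8.14 and 4.89 times in mean FPKM. In the GENCODE annotation of GRCm38, 504 of the 2265 exonic bases of Bnip3 (22.3%) are shared with an antisense gene, and the strand setting of the libraries is not given in the sources used here, so reads of the 2 cannot be told apart there.

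**Figure D4:**
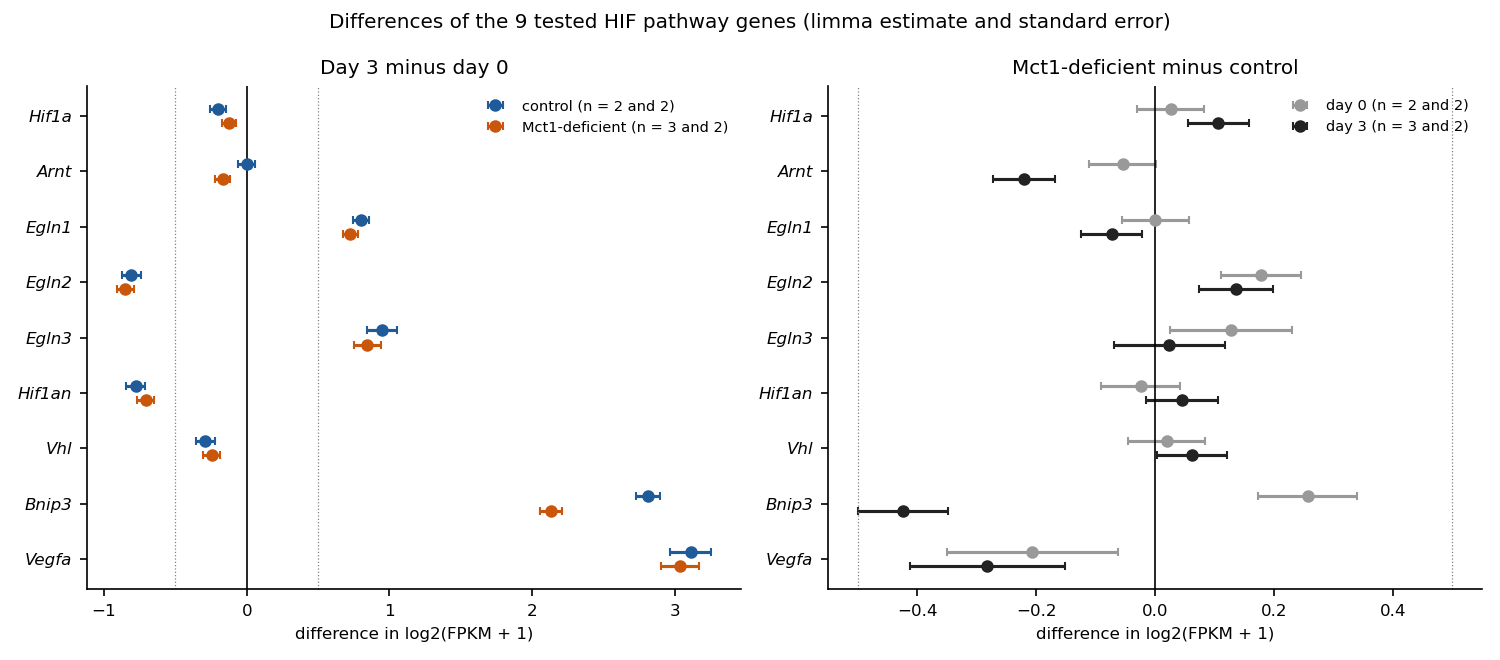
Difference in log2(FPKM + 1) with its standard error from limma (x axis) for the 9 tested members, day 3 minus day 0 in each genotype (left) and Mct1-deficient minus control on each day (right), with dotted lines at 0.5. Bnip3 rises by 2.81 in controls and by 2.13 in Mct1-deficient cells. It is the only member above 0.2 on day 0 that lies below -0.4 on day 3, and neither genotype difference passed both limits.

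The second comparison asked whether activation acted differently in the genotypes, as the interaction of genotype and day. Of the 9 members tested, 1, Bnip3, passed the test, against 3.23% of all genes called in either direction. Its rise was smaller in the Mct1-deficient cells by 0.68 ± 0.11 on the log2 scale (-0.68, limma adjusted p = 0.00549), and this lay between -0.75 and -0.61 when each library was left out in turn, day 0 Mct1-deficient replicate 1 with its high Ddx3y included. The other 8 members had interactions between -0.17 and 0.08, with limma adjusted p from 0.209 to 0.843. For Vegfa the interaction was -0.08 (limma adjusted p = 0.843), and it ran from -0.38 without the control library of day 0 that stood apart to 0.22 without the other one. The size and the call of the Bnip3 interaction draw on the day 0 labels.

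The third comparison asked how the genotypes differed after activation. On day 3, 0 of 9 members passed both limits, against 0.887% of all genes called higher and 1.53% called lower in Mct1-deficient cells, and 3142 of the 10823 genes had an unadjusted p under 0.05. Without the fold limit, 2 members, Bnip3 and Arnt, passed the adjusted p, both lower, where 9.21% of all genes were lower and 6.03% higher. Bnip3 was at 74.0% of the control mean, a difference of -0.42 ± 0.08 (limma adjusted p = 0.00402). Arnt was at 18.5, 17.0 and 18.5 FPKM in the Mct1-deficient libraries and 21.0 and 21.2 FPKM in the controls, a difference of -0.22 ± 0.05 (limma adjusted p = 0.0170). Leaving out 1 library took limma's adjusted p for Bnip3 to 0.0634 without day 3 control replicate 1, and that for Arnt to 0.0949 and 0.105 without day 3 control replicate 1 or 2 and to 0.0530 without Mct1-deficient replicate 2.

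Vegfa was at 81.5% of the control mean on day 3, with no overlap between the genotypes, and its difference of -0.28 ± 0.13 did not pass the test (limma adjusted p = 0.182). This p rests on the spread of the day 0 libraries, which share the estimate. With only the day 3 libraries in the fit, limma gave an adjusted p of 0.00338 for the same difference, and it gave 0.00580 and 0.00545 without day 0 control replicate 1 or 2. Of the 9 members tested, the Mct1-deficient libraries all lay below the controls in 3 (Arnt, Bnip3 and Vegfa) and all above in 2 (Hif1a and Egln2). Of all genes tested, 26.1% and 21% did so, and these counts are not a result about the members. Epas1, which was not tested, was at 0.39 to 0.51 FPKM in the Mct1-deficient libraries and at 0.60 FPKM in both controls. Hif1a differed by 0.11 ± 0.05 (limma adjusted p = 0.198) and Egln2 by 0.14 ± 0.06 (limma adjusted p = 0.172). The ratio of Hif1a to Arnt was 1.13 and 1.19 in the day 3 controls and 1.45, 1.52 and 1.44 in the day 3 Mct1-deficient libraries, with 1.31 to 1.45 in all day 0 libraries. As Hif1a lay above and Arnt below the controls on day 3, this ratio had to separate the genotypes there and adds no support. Egln1, Egln3, Hif1an and Vhl had overlapping ranges on day 3 and differences between -0.07 and 0.06 (limma adjusted p from 0.392 to 0.906).

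The fourth comparison asked whether the genotypes differed before activation. On day 0, 0 of 9 members passed the limma test, against 0.277% of all genes in either direction, and 1269 of the 10823 genes had an unadjusted p under 0.05. Bnip3 had the largest difference, 0.26 ± 0.08 higher in the libraries labelled Mct1f/fMb1Cre (limma adjusted p = 0.278), which was 123% of the control mean. Vegfa differed by -0.21 ± 0.14 (limma adjusted p = 0.629), and this difference was 0.09 without day 0 control replicate 1 and -0.51 without replicate 2 (limma adjusted p = 0.00709, past both limits). Egln2 was 0.18 ± 0.07 higher (limma adjusted p = 0.351), and the other 6 members lay between -0.05 and 0.13.

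Other genes of the pathway were taken from 3 lists: 17 partners and regulators of HIF, 15 glycolytic HIF targets and 33 other HIF targets. Of these, 14, 15 and 21 were tested. In control cells all 15 glycolytic genes changed with activation, 13 higher and 2 lower (24.8% and 33% of all genes), with a median of 1.89 beside -0.12 over all genes. Pgk1, a glycolytic kinase, went from 67.3 and 62.3 FPKM on day 0 to 580 and 537 FPKM on day 3, a rise of 3.09. Tpi1, the triose phosphate isomerase gene, rose by 3.01, and Slc16a3, which codes for the lactate exporter MCT4, by 2.66 in controls. The 2 that fell, Pfkfb3 and Pfkfb4, code for regulators of phosphofructokinase and dropped by 0.82 and 1.46. In Mct1-deficient cells 13 again rose and 2 fell (23.4% and 33.2% of all genes), with Tpi1, Pgk1 and Ldha, the lactate dehydrogenase gene, up by 2.89, 2.81 and 2.34.

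Of the 14 partners and regulators tested, 8 rose and 3 fell in each genotype, beside 24.8% of all genes higher and 33% lower in controls and 23.4% and 33.2% in Mct1-deficient cells. Siah2, a ubiquitin ligase gene whose protein acts on prolyl hydroxylases, went from 10.6 and 11.5 FPKM to 65.6 and 62.8 FPKM in controls, a rise of 2.43, and rose by 2.74 in Mct1-deficient cells. The chaperone genes Hsp90ab1 and Hsp90aa1 rose by 1.51 and 1.42 in controls and by 1.43 and 1.30 in Mct1-deficient cells. The 3 that fell in both genotypes were the coactivator genes Crebbp and Ep300 and the ligase gene Siah1a.

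Of the 21 other targets tested, 8 rose and 6 fell in controls, and 8 rose and 7 fell in Mct1-deficient cells, beside the same shares of all genes (24.8% and 33%, and 23.4% and 33.2%), so the counts of these targets are not a result about them. Loxl2, 1 of the 6 in controls, passed the filter only through the day 0 control library that stood apart, where it was at 4.71 FPKM against at most 1.01 FPKM elsewhere (its mean was 1.10 FPKM with that library and 0.653 FPKM without it), so its call is no support for a fall. Angptl4, called lower in both genotypes, was at 1.58 to 1.88 FPKM on day 0 and 0.30 to 0.84 FPKM on day 3. It passed the filter only through its day 0 libraries, so that the filter favoured a fall in it. Hmox1, the heme oxygenase gene, went from 143 and 131 FPKM to 13.5 and 14.2 FPKM in controls, where it fell by 3.21, and it fell by 3.13 in Mct1-deficient cells. Ndrg1, a stress response gene, fell by 1.99 and 2.23. Fam162a, a mitochondrial protein gene, rose by 1.66 in controls, and Ccng2, a cyclin gene of resting cells, dropped by 1.67 in Mct1-deficient cells. The summed FPKM of the 7 myeloid markers moved with these falls, from 1015 to 1820 on day 0 to 15.0 to 25.4 on day 3, and that of the 6 B cell markers went from 4183 to 4612 to between 2182 and 2271. Their part in these results was not tested.

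Between the genotypes on day 3, 2 of the 36 targets of both lists were called lower, both among the other targets, and 0 were called higher, beside 1.53% and 0.887% of all genes. Mxi1, a MYC antagonist gene, was at 13.2 and 12.9 FPKM in the controls and at 8.01, 7.60 and 7.93 FPKM in the Mct1-deficient libraries, and it was lower by 0.67 ± 0.06 (-0.67, limma adjusted p = 9.37e-05). Bhlhe40, a transcriptional repressor gene, was at 24.9 and 25.1 FPKM against 15.0, 15.9 and 16.2 FPKM, lower by 0.64 ± 0.06 (-0.64, limma adjusted p = 0.000126). Neither gene had overlapping values between the genotypes on day 3, but both were picked on these same values. Of all genes tested, 26.1% had every Mct1-deficient library below every control library. Without the fold limit, 13 of the 36 targets passed limma's adjusted p lower and 0 higher, beside 9.21% and 6.03% of all genes, and 28 of the 36 differences were negative, with a median of -0.16 beside -0.01 over all genes. Without day 0 control replicate 1, 34 targets were tested, of which 12 passed lower and 1 higher, and the share of all genes was not taken there. With all libraries, the 13 were Aldoa, Tpi1, Pgk1, Pkm and Slc16a3 among 15 glycolytic targets, and Bnip3l, Mxi1, Fam162a, Bhlhe40, Hilpda, Ero1a, Ccng2 and Insig2 among 21 other targets, named after their values were seen. Of the 14 partners and regulators, 0 passed lower and 1, Crebbp, higher by 0.23 ± 0.05 (limma adjusted p = 0.0152).

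**Figure D5:**
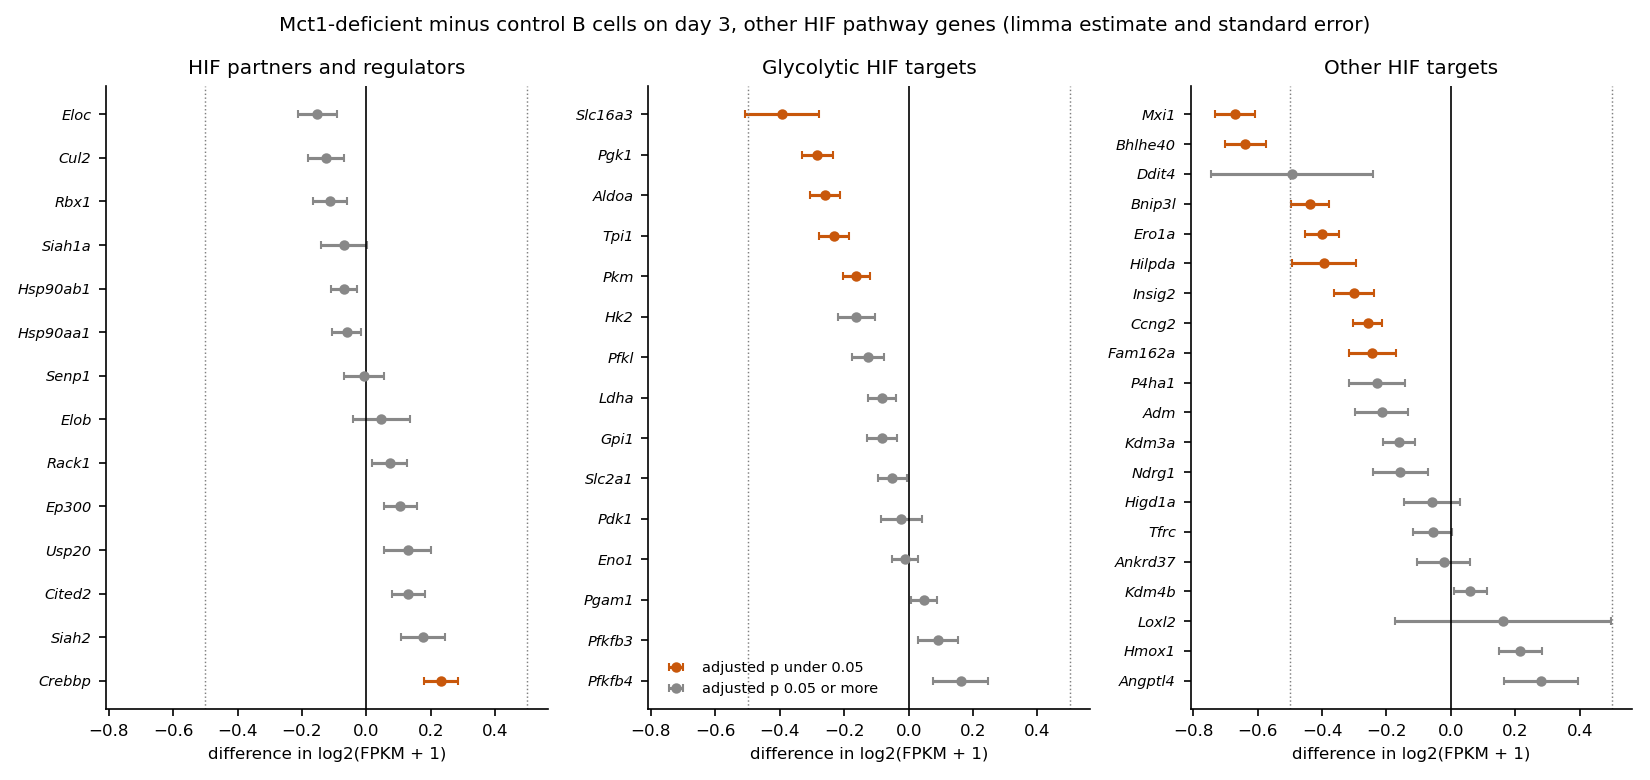
Difference in log2(FPKM + 1) between Mct1-deficient and control B cells on day 3 with its standard error from limma (x axis) for tested genes of the 3 other lists, with dotted lines at 0.5 and colour for an adjusted p under 0.05. Of the targets, 28 lie below 0, and Mxi1 and Bhlhe40 lie below -0.5.

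The interaction called 3 of the 36 targets and 0 of the 14 partners, beside 3.23% of all genes, all 3 with a lower value in activated Mct1-deficient cells than the other 3 groups would give if the differences added up. Bnip3l, the near relative of Bnip3 that acts in the same removal of mitochondria, was at 34.9 and 35.4 FPKM in the day 0 controls and 37.6 and 37.8 FPKM on day 3, and at 38.1 and 37.0 FPKM against 29.8, 27.8 and 25.3 FPKM in Mct1-deficient cells. Its interaction was -0.53 ± 0.09 (limma adjusted p = 0.00565), with Mxi1 at -0.60 ± 0.09 (limma adjusted p = 0.00462) and Bhlhe40 at -0.63 ± 0.09 (limma adjusted p = 0.00356). Unlike Bnip3, Bnip3l did not pass both limits between the days in either genotype, at 0.10 in controls and -0.43 in Mct1-deficient cells. Bnip3 went from 0.148 to 0.185 times the Bnip3l level on day 0 to 1.10 to 1.24 times on day 3. In this ratio the genotypes overlapped on day 3. Among the markers of other cells, 2 of 7 myeloid markers, Lyz2 and Adgre1, were called higher in Mct1-deficient cells on day 3 (Lyz2 at 16.8, 17.6 and 20.4 FPKM against 11.5 and 10.0 FPKM). The other 5 did not pass, with differences of 0.27 and 0.36 for Csf1r and Itgam and of -0.32, -0.82 and -0.04 for S100a8, S100a9 and Mpo. The last 3 were low on day 3, at most 1.02, 1.91 and 0.18 FPKM. Most of the summed level was Lyz2, and the summed level of the 7 was 22.2 to 25.4 FPKM against 15.0 to 16.8 FPKM. Their part in the genotype differences was not tested.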

How the data were processed

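RNA of spleen B cells was sequenced in 9 libraries, whose groups come from GEO's labels. For 17596 genes, FPKM values were deposited, rounded to 2 decimals, normalised to transcript length and mapped fragments. The labels' processing notes name Bowtie2 and the build GRCm38 (mm10). The annotation, the strand setting and the counting tool are not given in the sources used here, and the labels and the study's methods name different RNA extraction reagents. No further scaling was applied, and log2(FPKM + 1), which understates the change of low genes, was tested.

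Genes were kept when their average over the 9 libraries reached 1 FPKM (10823 genes) and fitted with limma 3.58.1 in R 4.3.3 (1 mean per group, empirical Bayes with a trend, Benjamini-Hochberg over all genes tested). A call needed an adjusted p under 0.05 and a difference over 0.5. The fit was tested on simulated data. Differences are limma estimates on the log2 scale. Read counts were not recovered, so depth and counting error are unknown, and precision rests on 2 or 3 libraries per group.

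The members and lists were chosen with earlier results of these data known. All 10 members were named in each comparison, with the 3 called genes of largest difference in each other list. Promoters came from RefSeq GRCm38.p6 and gene overlaps from GENCODE on GRCm38. Epas1 has no promoter shown, and 1 tested target that enters the counts is not reported here by name or plotted. Alternatives were pseudocounts of 0.1 and 5, no filter, 3 scalings, only the groups compared, no trend, no fold limit, a block for the replicate number and each library left out. A block with crossed control numbers, and the list counts without day 0 control replicate 1, were added after the data were seen.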

Additional observations from a re-analysis of the deposited data

Results flagged for a closer look

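The effect of activation differed between the genotypes, by the interaction term of limma, in 1 member, Bnip3 (-0.68, adjusted p = 0.00549), and in 3 other HIF targets, Bnip3l (-0.53, adjusted p = 0.00565), Mxi1 (-0.60, adjusted p = 0.00462) and Bhlhe40 (-0.63, adjusted p = 0.00356). The interaction called 3.23% of all genes in either direction. In each of the named genes, all 3 Mct1-deficient libraries lay below both controls on day 3, as in 26.1% of all genes tested. These genes were picked by an interaction that uses the same day 3 values, so this adds no support. No group has 4 libraries, so none was searched for a library far from the others.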

How the results depend on the processing

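Over 68 differences of named genes and 18 settings, 1182 of 1212 values kept their direction and their side of the limits, 8 were no longer past them, 1 was newly past them and 21 changed sign. The 6 members called between the days in each genotype kept their direction in every setting run. The count of members called on day 3 went from 0 to 2 with no fold limit, and that on day 0 ran from 0 to 1 with libraries left out in turn (Vegfa, without day 0 control replicate 2). Sign changes under another scaling were Egln1 on day 0 at -0.0106 (common total) and -0.0031 (quantile), Arnt between the days in controls at 0.12 (median-of-ratios) and 0.0402 (quantile), Hif1a between the days in Mct1-deficient cells at 0.0135 (median-of-ratios) and the Vegfa interaction at 0.0216 (quantile). With libraries left out in turn, these ranges crossed 0: on day 0, Egln1 from -0.0361 to 0.0376, Hif1an from -0.0858 to 0.0376, Vegfa from -0.51 to 0.0935 and Hif1a from -0.0394 to 0.0921. On day 3 they were Egln3 from -0.0239 to 0.072 and Hif1an from -0.0172 to 0.11, for the interaction Egln2 from -0.13 to 0.0505, Vegfa from -0.38 to 0.22 and Vhl from -0.0033 to 0.092, and for activation in controls Arnt from -0.0386 to 0.0377. The cause was not tested. Under a pseudocount of 5, Egln3 was under the fold limit in both genotypes (0.31 and 0.29), as was Mxi1 on day 3 (-0.49) and in the interaction (-0.44). The Bnip3l interaction was also under it there (-0.47), with quantile normalization (-0.48) and without Mct1-deficient replicate 3 of day 3 (-0.47).

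Correlations of same-numbered deviations lay between -0.122 and 0.0642. With 2 or 3 libraries per group, these cannot show whether the labels' replicate numbers pair the samples. With the replicate number as a block, the members called stayed at 0 on day 3 and 0 on day 0, 1 in the interaction (Bnip3, -0.61) and 6 in each activation comparison, and the Bnip3l interaction (-0.47) was under the fold limit. The crossed pairing of the control libraries, added after the data were seen, also called 6. Without day 0 control replicate 1, 19 of the other targets were tested, with 2 lower on day 3 and 4 lower in the interaction. By the adjusted p alone, 7 were lower and 1 higher on day 3. The share of all genes called in that fit was not taken, so these counts are not a result about the targets.

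The depth is unknown, so counting error cannot be given for low genes such as Epas1 and Egln3. With 2 or 3 libraries per group, a difference that missed the test is not shown to be absent.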
